A study of Homo sapiens with 8 samples.

Results

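The genes described here are 37 ligands, receptors, SMADs, ID target genes and regulators of the bone morphogenetic protein (BMP) and transforming growth factor beta (TGF-beta) pathways, chosen by name. A member was measured by the probe sets that the platform annotation gives to that gene alone, which held for 36 of the 37 genes, out of 19775 genes on the array. BMPR1A had no probe set of its own there and was not analysed here. CHRD fell under the filter on low signals and was not tested, which left 35 members among 12063 genes tested. Of these, 9 were ligands, 9 receptors, 8 SMADs, 4 ID genes and 5 regulators.

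BMPs and TGF-beta are secreted dimers that assemble pairs of type I and type II serine/threonine kinase receptors at the cell surface. The receptors phosphorylate SMAD proteins, SMAD1, SMAD5 and SMAD9 for BMPs and SMAD2 and SMAD3 for TGF-beta and activins, and these enter the nucleus with SMAD4. BMPs were named for inducing bone and act in the osteoblast lineage, while TGF-beta is stored in bone matrix in a latent form. Antagonists outside the cell, decoy receptors and the inhibitory SMADs limit the signal, and several of these brakes are themselves BMP or TGF-beta target genes.

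The cells were Saos-2, a long-established human osteosarcoma cell line, p53-null by its labels. The study asked what a compound labelled Prima does to the transcriptome of these p53-null cells. Untreated cells (3 arrays, replicates 1, 2 and 3), cells after 6 h of Prima (3 arrays, replicates 1, 2 and 3) and cells after 12 h of Prima (2 arrays, replicates 1 and 3) were profiled, all of this 1 line, with no vehicle group among them. The labels gave no dose and did not tell whether the replicates were grown apart, and p-values therefore cover only the spread among these arrays, which could be technical. RNA of whole cultures was measured, so fewer cells with a transcript and less transcript per cell cannot be told apart.

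Values are MAS5 signals, a linear intensity per probe set, all arrays having the same 2% trimmed mean of 100.01. They are given in the order of the replicate numbers, and each gene is represented by its brightest probe set. Signals of different genes come from different probes and are not set against each other. The replicate 2 arrays stood apart, their median signals over all probe sets being 47.5 at 6 h and 50.9 in untreated cells. The replicate 1 arrays had medians of 21.8 to 24.95 and the replicate 3 arrays 14.2 to 15.6. Signals at or under 2.385 made up 6.26% to 7.88% of probe sets on replicate 1 arrays and 19.0% to 20.8% on replicate 3 arrays. On the replicate 2 arrays they made up 0.062% to 0.071%. The 3′ probe set of ACTB exceeded its 5′ probe set 2.29 times on 12 h replicate 1, 1.73 times on 6 h replicate 1 and 1.12 to 1.38 times elsewhere, a ratio that grows as RNA degrades. Of 11 osteoblast-lineage markers 9 were measured, and all 9 passed the filter on mean signal. RUNX2 ranged over the 8 arrays from 1411 to 2350.0, COL1A1 from 2764 to 4801 and SPARC from 1319 to 2556, while ALPL was at 131 to 286, SP7 at 88.8 to 272, COL1A2 at 26.9 to 99.6, SPP1 at 14.5 to 94.2, IBSP at 32.1 to 77.4 and PTH1R at 5.41 to 47.1. Summed signals of 8 epithelial markers were 203 to 371, of 6 measured blood-cell markers 52.5 to 301 and of 6 endothelial markers 40.8 to 314. The filter was passed by 1 of the epithelial markers (EPCAM, at 26.0 to 245), 4 of the blood-cell markers and 1 of the endothelial markers.

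None of the 35 members passed the test in any comparison (limma with Benjamini-Hochberg adjustment over 12063 genes, threshold 0.05), and no other gene did either. After 6 h against untreated the share of genes called was 0%, and 79 genes (0.655%) had an unadjusted p under 0.05, none of them a member. After 12 h against untreated it was also 0%, with 74 genes (0.613%) under an unadjusted 0.05 and no member. For 12 h against 6 h it was 0%, with 88 genes (0.73%) and no member. Differences below are log2 differences of signal with their standard error (SE), on the scale with signals under 2.385 set to that value.

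Groups overlapped for nearly every member. At 6 h against untreated no member had arrays that did not overlap, where 3.54% of all genes did (2.03% higher at 6 h, 1.51% lower). At 12 h against untreated 1 member, ACVR1, did, and was higher, where 14.5% of all genes did (9.6% higher at 12 h, 4.89% lower), and for 12 h against 6 h 1 member, again ACVR1, also higher, where 11.6% did (7.1% higher at 12 h, 4.5% lower). The median member differed by -0.08 at 6 h against untreated, beside 0.02 over all genes, by 0.02 at 12 h against untreated, beside 0.08, and by 0.07 for 12 h against 6 h, beside 0.06. The last 2 comparisons share the 12 h arrays, and the first 2 share the untreated arrays.

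**Figure D1:**
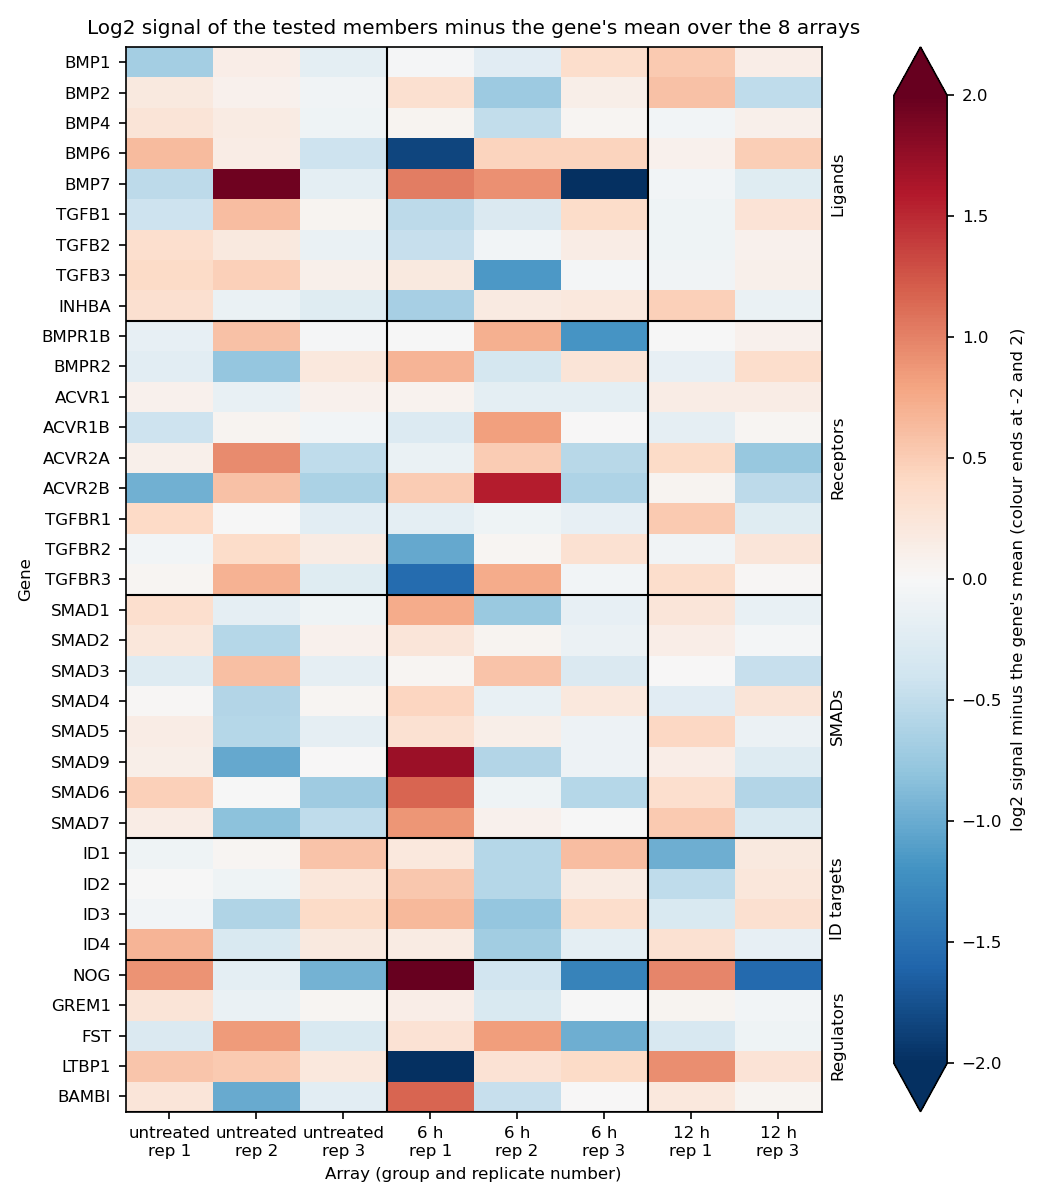
Log2 signal of the 35 tested members (rows, by role) on the 8 arrays (columns, untreated, 6 h and 12 h), minus each gene's mean over the arrays. The column of 6 h replicate 1 holds the highest value of 11 members, among them NOG, SMAD9 and BAMBI, and the lowest of 7, among them LTBP1 and BMP6.

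Among the ligands, INHBA, the inhibin beta A subunit whose dimer is activin A, had signals of 1692, 1237 and 1143 in untreated cells, 853, 1539 and 1575 at 6 h, and 1879 and 1232 at 12 h. The 6 h replicate 1 array was the lowest of the 8, and the groups overlapped. TGFB1, the most widely expressed TGF-beta, had 283, 579 and 393 in untreated cells, 263, 309.5 and 489 at 6 h, and 355 and 459 at 12 h. Its highest array was untreated replicate 2 and its lowest 6 h replicate 1. TGFB2, a second isoform, had 469, 425 and 339 in untreated cells, 271, 357 and 411 at 6 h, and 349.6 and 396 at 12 h. BMP4, a bone-inducing BMP, had 249.7, 236 and 197 in untreated cells, 218, 149 and 216 at 6 h, and 202 and 225 at 12 h. These values spread as widely within a group as between groups: the 6 h against untreated differences were -0.07 ± 0.29 for INHBA, -0.23 ± 0.32 for TGFB1, -0.26 ± 0.26 for TGFB2 and -0.24 ± 0.27 for BMP4.

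BMP1 is a metalloproteinase that cleaves procollagen and chordin and carries a BMP name without being a TGF-beta family ligand. Its signals were 196 and 149 at 12 h, against 85.5, 149.8 and 119 in untreated cells. Both 12 h arrays lay near or above the highest untreated array, with overlap, and the difference of 0.57 ± 0.35 was the largest of any member in that comparison (unadjusted p = 0.128). Of 2 further BMP1 probe sets above the filter, 1 went the same way, and with the mean of its probe sets the difference was -0.16.

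BMP7, BMP6 and TGFB3 were dim, and their differences came with wide errors. BMP7, a BMP used clinically in bone repair, had 17.6, 97.3 and 22.1 in untreated cells, 51.5, 47.6 and 3.50 at 6 h, and 24.3 and 21.5 at 12 h. Its highest array was untreated replicate 2 and its lowest 6 h replicate 3, and the differences were -0.72 ± 1.08 at 6 h and -0.56 ± 1.20 at 12 h against untreated. Without untreated replicate 2 these became 0.05 and 0.21. A further BMP7 probe set above the filter went the other way at 6 h, at 0.20 on average over the same-numbered pairs. TGFB3, the third TGF-beta isoform, had 37.7, 14.8 and 31.9 at 6 h, against 42.7, 45.6 and 35.2 in untreated cells, a difference of -0.65 ± 0.61, and 6 h replicate 2 alone was far below the rest. BMP6 had 19.7 and 26.2 at 12 h, against 5.19, 25.4 and 25.3 at 6 h, and its 0.60 ± 1.13 rested on the 6 h replicate 1 array, without which it was -0.16.

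BMP2, the remaining ligand, spanned 56.2 to 139 over the 8 arrays, and its brightest probe set was at -0.17 at 6 h against untreated. A further BMP2 probe set above the filter was higher at 6 h in all 3 same-numbered pairs, by 0.45 on average. Both further TGFB2 probe sets above the filter were lower at 6 h in all 3 pairs, at -0.49 and -0.56 on average. At 6 h against untreated 1 of 9 ligands, BMP1, had a difference above 0, and the median ligand was at -0.24. At 12 h against untreated 4 of 9 did, with a median of -0.04. At 12 h against 6 h all 9 were above 0, by 0.12 to 0.60, none past the test, and this comparison shares its 6 h arrays with the first. The 6 h replicate 1 array was the lowest of the 8 for 4 of the 9 ligands, where it was for 16% of all genes. Without that array 6 of 9 ligands were above 0 for 12 h against 6 h and 3 of 9 at 6 h against untreated (median -0.088). With the replicate block the median ligand was at 0.11 at 12 h against untreated. Over all genes the shares above 0 were 53%, 59.9% and 57.2%.

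Of the receptors, TGFBR1, the type I receptor of TGF-beta, had signals of 746, 567 and 492 in untreated cells, 497, 535 and 505 at 6 h, and 813 and 480.0 at 12 h. Untreated replicate 1 and 12 h replicate 1 stood above the other arrays, which lay close together. TGFBR2, its type II partner, had 233, 311 and 269 in untreated cells, 119, 248 and 298 at 6 h, and 229 and 286 at 12 h. On 6 h replicate 1 it was lowest, and the 6 h against untreated difference was -0.38 ± 0.34 with that array and 0.02 ± 0.27 without it. TGFBR3, the betaglycan co-receptor that presents TGF-beta to TGFBR2, had 82.1 and 65.2 at 12 h, against 22.1, 108 and 62.3 at 6 h, a difference of 0.47 ± 0.60 that was -0.16 ± 0.47 without 6 h replicate 1. A further TGFBR3 probe set above the filter had 39.2 and 30.0 at 12 h, against 17.7, 104 and 30.2 at 6 h.

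ACVR1 is a type I BMP receptor, also called ALK2, known for the mutations that cause fibrodysplasia ossificans progressiva. It had 339.8, 287 and 338 in untreated cells, 335, 278 and 279 at 6 h, and 352 and 355 at 12 h. The 12 h arrays lay above all the others, narrowly, and the differences were small: 0.14 ± 0.27 at 12 h against untreated (unadjusted p = 0.603) and 0.26 ± 0.27 for 12 h against 6 h (unadjusted p = 0.354). ACVR1 alone makes 2.86% of the tested members in either comparison.

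BMPR2, the main type II receptor for BMPs, had 350.9, 238 and 467 in untreated cells, 651, 318 and 483 at 6 h, and 362 and 516 at 12 h, with 6 h replicate 1 the highest, and differed by 0.45 ± 0.33 at 6 h against untreated. In each of the 3 same-numbered pairs it was higher at 6 h, by 0.89, 0.41 and 0.05. Of 4 further BMPR2 probe sets above the filter, 1 went the same way. ACVR2B, an activin type II receptor, had 17.7, 51.7 and 22.2 in untreated cells, 48.9, 102 and 22.3 at 6 h, and 35.5 and 23.97 at 12 h. Its 0.82 ± 0.70 was the largest positive difference among members at 6 h against untreated, with overlapping arrays, and its 1 further probe set went the other way. For 12 h against 6 h it was -0.72 ± 0.78, or 0.29 with the mean of its probe sets. ACVR2A, the other activin type II receptor, had 136 and 61.1 at 12 h, against 111, 200.4 and 72.7 in untreated cells, with a difference of -0.37 ± 0.50 that became 0.02 without the replicate 2 arrays.

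The remaining receptors, BMPR1B and ACVR1B, ranged over the arrays from 11.01 to 40.8 and from 120.3 to 283. Differences above 0 were found in 3 of 9 receptors at 6 h against untreated, 6 of 9 at 12 h against untreated and 5 of 9 for 12 h against 6 h, with medians of -0.21, 0.06 and 0.19. Without 6 h replicate 1 the first was 0.018 and the last -0.089.

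Of the 8 SMADs, 7 lay above untreated at 6 h, with a median of 0.28, beside 53% of all genes and a median of 0.02. At 12 h 6 of 8 did, with a median of 0.16, and for 12 h against 6 h 2 of 8 were above 0, with a median of -0.18. None passed the test. The 12 h group holds no replicate 2 array, and with the replicate block 4 of 8 were above 0 at 12 h against untreated, with a median of -0.0058. Without 6 h replicate 1, 5 of 8 were above 0 at 6 h against untreated (median 0.07) and 6 of 8 for 12 h against 6 h (median 0.11). On 6 h replicate 1 alone, 6 of the 8 SMADs had the highest signal of any array, where 19.3% of all genes did. On untreated replicate 2, 5 of the 8 had the lowest signal, where 25.1% of all genes did. Relative to the median of the other arrays, the median SMAD stood at 0.64 on the former array and -0.65 on the latter. In the same-numbered pairs at 6 h against untreated the median SMAD was at 0.41, 0.44 and -0.008.

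SMAD7, the inhibitory SMAD that recruits ubiquitin ligases to the receptors and is itself induced by TGF-beta, had 271, 157 and 147 at 6 h, against 163, 83.6 and 104 in untreated cells. Its 6 h arrays overlapped with the untreated group through untreated replicate 1, and the difference was 0.71 ± 0.36 (unadjusted p = 0.0719), the smallest p of any member at 6 h. At 12 h it had 212 and 119.6, a difference of 0.50 ± 0.41 from untreated cells. Without 6 h replicate 1 the 6 h difference was 0.44 ± 0.37.

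SMAD9, a BMP-activated SMAD also called SMAD8, had 403, 181 and 373 in untreated cells, 1208, 247 and 343 at 6 h, and 408 and 309 at 12 h. Its 6 h replicate 1 signal was above every other array, and the difference of 0.64 ± 0.49 was -0.05 ± 0.36 without it. SMAD4, the common partner, had 461, 303 and 466 in untreated cells, 610.3, 411 and 524 at 6 h, and 389 and 541 at 12 h, and the 3 same-numbered pairs at 6 h were 0.40, 0.44 and 0.17. SMAD5, another BMP-activated SMAD, had 547, 333 and 437 in untreated cells, 610.1, 536 and 459 at 6 h, and 658 and 455 at 12 h, with pairs of 0.16, 0.69 and 0.07. These brightest probe sets were higher at 6 h in each pair, and neither passed the test. Of 4 further SMAD5 probe sets above the filter 1 was higher on average at 6 h, and 1 was lower in all 3 pairs, and of 3 further SMAD4 probe sets 2 were higher on average.

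SMAD2, activated by TGF-beta and activin, had 678, 389.9 and 620.1 in untreated cells, 686, 601 and 535 at 6 h, and 639 and 569 at 12 h, with overlap throughout and a 6 h difference of 0.14 ± 0.26. SMAD1, a BMP-activated SMAD, ranged from 238 to 663, again highest on 6 h replicate 1. SMAD3, the partner of SMAD2, ranged from 74.9 to 156, with both replicate 2 arrays the highest. SMAD6, the inhibitory SMAD that acts mainly on BMP receptors and is a BMP target, had 151, 109 and 66.3 in untreated cells, 245, 103 and 73.4 at 6 h, and 137 and 72.5 at 12 h. Its replicate numbers separated the arrays more than its groups did, as given further on.

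The promoters of both inhibitory SMADs and of the decoy receptor BAMBI are printed because the 3 genes had high signals on 6 h replicate 1 and are textbook feedback targets. The sequences are the 250 bases before an annotated start, 5′ to 3′ on the gene's strand, from RefSeq (GRCh38.p14). Capitals mark CAGAC (the SMAD3 and SMAD4 box), GGCGCC (a GC element bound by BMP-activated SMADs) and GTCTAGAC (the SMAD palindrome), searched on both strands, so that CAGAC on the other strand appears as GTCTG. The other motifs read the same on both strands, none of the 3 contains another, and the palindrome was added after the values were seen. SMAD7 has several annotated starts, and the most upstream is shown, at chr18:48950966-48951215 on the minus strand. SMAD6 lies at chr15:66701986-66702235 and BAMBI at chr10:28677271-28677520, both on the plus strand.
SMAD7: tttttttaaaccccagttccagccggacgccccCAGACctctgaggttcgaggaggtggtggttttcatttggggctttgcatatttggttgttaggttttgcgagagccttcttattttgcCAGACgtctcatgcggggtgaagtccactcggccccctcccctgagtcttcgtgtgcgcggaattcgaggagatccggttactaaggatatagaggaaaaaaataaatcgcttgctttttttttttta
SMAD6: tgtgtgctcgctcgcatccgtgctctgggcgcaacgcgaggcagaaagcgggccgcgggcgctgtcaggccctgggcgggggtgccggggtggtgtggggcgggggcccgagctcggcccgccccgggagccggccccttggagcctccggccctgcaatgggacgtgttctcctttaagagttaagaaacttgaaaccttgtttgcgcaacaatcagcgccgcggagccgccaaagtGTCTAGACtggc
BAMBI: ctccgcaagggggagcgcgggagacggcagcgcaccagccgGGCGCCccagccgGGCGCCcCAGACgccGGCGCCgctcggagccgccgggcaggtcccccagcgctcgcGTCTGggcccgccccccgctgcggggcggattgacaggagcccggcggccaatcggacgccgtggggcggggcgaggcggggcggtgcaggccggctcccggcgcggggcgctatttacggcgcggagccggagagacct

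The SMAD7 window held CAGAC at 2 positions, the SMAD6 window held the palindrome 12 bases before its start, and the BAMBI window held 3 GGCGCC and 2 CAGAC. Among 35093 promoters of the same length, 38.0% held CAGAC, 16.4% GGCGCC and 0.182% the palindrome. Of 33 members searched (63 starts), 16 held CAGAC in at least 1 start, 12 GGCGCC and 1, SMAD6, the palindrome. The ID1 window held none of the 3. A match is a run of letters, not a shown binding site, and members have several starts each, so their counts are not on the same footing as the shares per promoter. NOG, BMP1, BMP2 and BMP7 were not among the 33. Members on chr8 were left out of this search, while the 35093 promoters include that chromosome.

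The ID genes encode helix-loop-helix proteins without a DNA-binding region and are direct BMP targets that hold back differentiation. ID1 had signals of 1428, 1546 and 2246 in untreated cells, 1745, 1020.4 and 2316 at 6 h, and 769 and 1733 at 12 h. The 12 h replicate 1 array was the lowest of all 8, while 12 h replicate 3 lay inside the untreated range. The difference of -0.56 ± 0.39 was the most negative of any member at 12 h against untreated (unadjusted p = 0.176), and it was 0.02 without 12 h replicate 1. For 12 h against 6 h it was -0.47 ± 0.39.

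ID3 had 1771, 1211 and 2389 in untreated cells, 2888, 1077 and 2349 at 6 h, and 1490.1 and 2281 at 12 h, highest on 6 h replicate 1 and lowest on the replicate 2 arrays. ID2 had 678, 644 and 802 in untreated cells, 995, 458 and 765 at 6 h, and 482 and 796 at 12 h, with the same array highest. ID4, known from osteoblast differentiation in mice, had 345, 174 and 248 in untreated cells, 242, 134 and 188 at 6 h, and 267 and 193 at 12 h. Its groups overlapped, and the 6 h difference was -0.43 ± 0.33. In each comparison 1 of the 4 ID genes was above 0, ID3 at 6 h and at 12 h against untreated and ID4 for 12 h against 6 h. The 12 h group holds no replicate 2 array. By their brightest probe sets all 4 ID genes were lower at 12 h than in untreated cells in both same-numbered pairs, where 25% of all genes were. The median ID gene was at -0.43 in replicate 1, -0.21 in replicate 3 and -0.36 with the replicate block. A further ID2 probe set above the filter was higher at 12 h in both pairs, at 189 and 186, against 169 and 176 in untreated cells. Further ID4 probe sets above the filter were mixed. With 6 h replicate 1 left out, 0 of 4 were above 0 at 6 h against untreated and 3 of 4 for 12 h against 6 h.

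**Figure D2:**
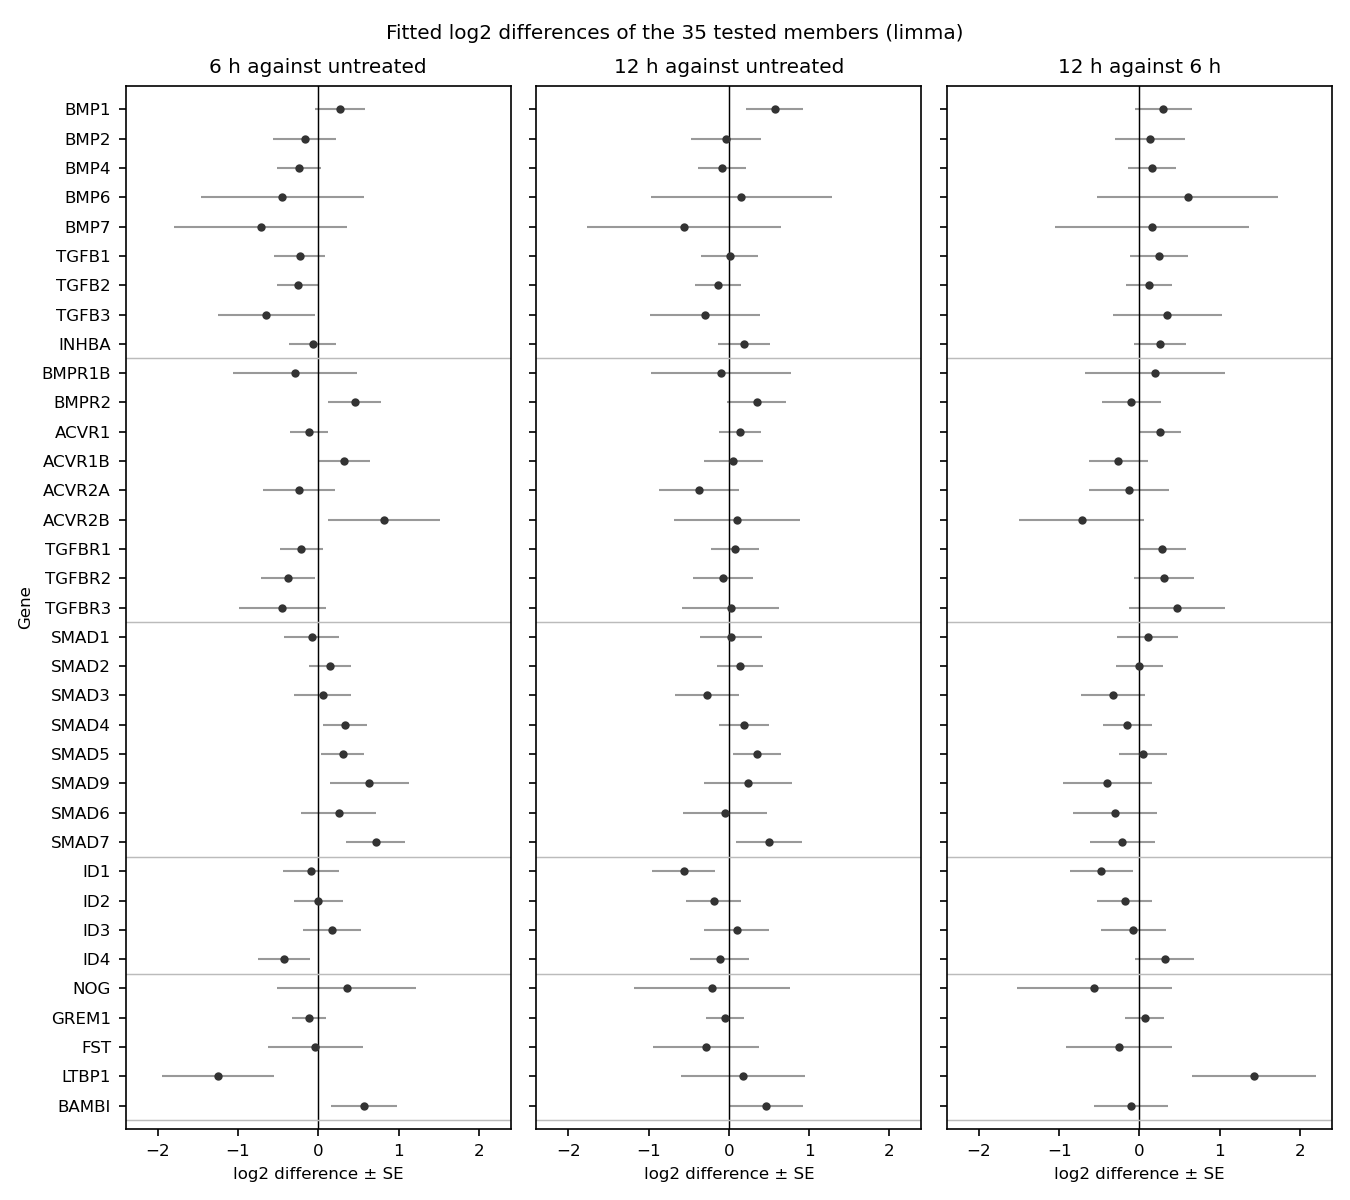
Log2 differences of the 35 tested members with their SE (horizontal bars), from the limma fit over all 8 arrays, for 6 h against untreated, 12 h against untreated and 12 h against 6 h. Genes run down the axis by role, and no member passed the test. LTBP1 has the largest difference on the left panel, at -1.25, and on the right panel, at 1.43.

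Of the regulators, GREM1 (Gremlin), a secreted BMP antagonist, had 2819, 2148 and 2430.3 in untreated cells, 2596, 1906 and 2339 at 6 h, and 2463 and 2283 at 12 h. Its arrays lay within a narrow band, and the differences of -0.12 ± 0.22 at 6 h and -0.05 ± 0.24 at 12 h against untreated were small beside their errors. NOG (Noggin), which binds BMP2 and BMP4 and blocks their receptors, had 203, 95.4 and 56.8 in untreated cells, 633, 83.6 and 43.2 at 6 h, and 215 and 37.1 at 12 h. The 3 replicate 1 arrays were the highest and the 3 replicate 3 arrays the lowest, whatever the group. Its differences were 0.35 ± 0.86 at 6 h against untreated and -0.56 ± 0.97 for 12 h against 6 h, and without 6 h replicate 1 they were -0.78 ± 0.69 and 0.57 ± 0.75.

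LTBP1 encodes a matrix protein that holds TGF-beta in its latent complex. Its signals were 412, 405 and 326 in untreated cells, 31.7, 344 and 369 at 6 h, and 535 and 342 at 12 h. The 6 h replicate 1 array was far below the rest, and the second LTBP1 probe set above the filter was also lowest there, at 5.90, where the others had 60.9 to 91.4. The 6 h against untreated difference of -1.25 ± 0.69 (unadjusted p = 0.0947) was -0.09 ± 0.28 without that array, and the 12 h against 6 h difference of 1.43 ± 0.78 was 0.26 ± 0.30.

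BAMBI, a receptor-like protein without a kinase domain that damps BMP and TGF-beta signals, had 306, 129 and 223 in untreated cells, 583, 188 and 261 at 6 h, and 300.1 and 269.5 at 12 h. It differed by 0.57 ± 0.41 at 6 h and 0.46 ± 0.46 at 12 h against untreated, with overlap at both times, and without 6 h replicate 1 the 6 h value was 0.10 ± 0.36. FST (follistatin), which traps activins, ranged from 21.3 to 75.8. CHRD (chordin), a BMP antagonist, was dim, at 5.08 and 2.31 at 12 h, against 32.4, 44.8 and 12.4 in untreated cells, and was not tested. Of the 5 tested regulators 2 were above 0 at 6 h against untreated, 2 at 12 h against untreated and 2 for 12 h against 6 h, the last being 4 of 5 without 6 h replicate 1.

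Arrays with the same replicate number deviated together across genes, so each comparison was also fitted with the number as a block. No gene passed with the block in any comparison. At 6 h against untreated 3 members, SMAD7, BAMBI and ID4, had an unadjusted p under 0.05 with the block, where 4.09% of all genes did. At 12 h against untreated 1 member did, ID1, where 2.17% of all genes did. For 12 h against 6 h 2 did, ID1 and SMAD9, where 2.46% of all genes did.

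SMAD7 was higher at 6 h in each of the 3 pairs, by 0.73, 0.91 and 0.50, and higher at 12 h in both pairs, by 0.38 and 0.20. With the block its 6 h difference was 0.71 ± 0.20 (limma, unadjusted p = 0.0063, adjusted p = 0.831). BAMBI was higher at 6 h in all 3 pairs, by 0.93, 0.55 and 0.23, with a blocked difference of 0.57 ± 0.22. ID4 was lower at 6 h in all 3 pairs, at -0.51, -0.38 and -0.40, and lower at 12 h in both, at -0.37 and -0.36. Its blocked 6 h difference was -0.43 ± 0.17. Further ID4 probe sets above the filter differed at 6 h by -0.21, -0.64 and 0.24 on average over the pairs. SMAD7, BAMBI and ID4 each carry an adjusted p of 0.831 in the limma fit with the block.

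ID1 was lower at 12 h than in untreated cells in both pairs, at -0.89 and -0.37, and lower at 12 h than at 6 h in both, at -1.18 and -0.42. The blocked 12 h against untreated difference was -0.76 ± 0.23 (limma, unadjusted p = 0.0091, adjusted p = 1). SMAD9 was lower at 12 h than at 6 h in both pairs, at -1.57 and -0.15, most of it from replicate 1. ID1 on 12 h replicate 1, the array with the highest ACTB 3′ to 5′ ratio, gave the larger of both ID1 differences, and the part of that array's quality in this was not tested.

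Over all members, 7 were higher in every pair at 6 h against untreated, where 13.6% of all genes were, and 5 lower, where 10.4% were. At 12 h against untreated 12 were higher in both pairs and 7 lower, where 34% and 25% of all genes were. For 12 h against 6 h 5 were higher and 8 lower, where 26% and 23.6% were. As shares of the 35 members these are 20% and 14.3% at 6 h against untreated, 34.3% and 20% at 12 h against untreated, and 14.3% and 22.9% for 12 h against 6 h. These counts use the brightest probe set of each gene. ACVR1B and ACVR2B were among the 7, yet their further probe sets above the filter were lower at 6 h in all 3 pairs. Those averaged -0.98 and -1.39 for ACVR1B and -0.60 for ACVR2B.

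**Figure D3:**
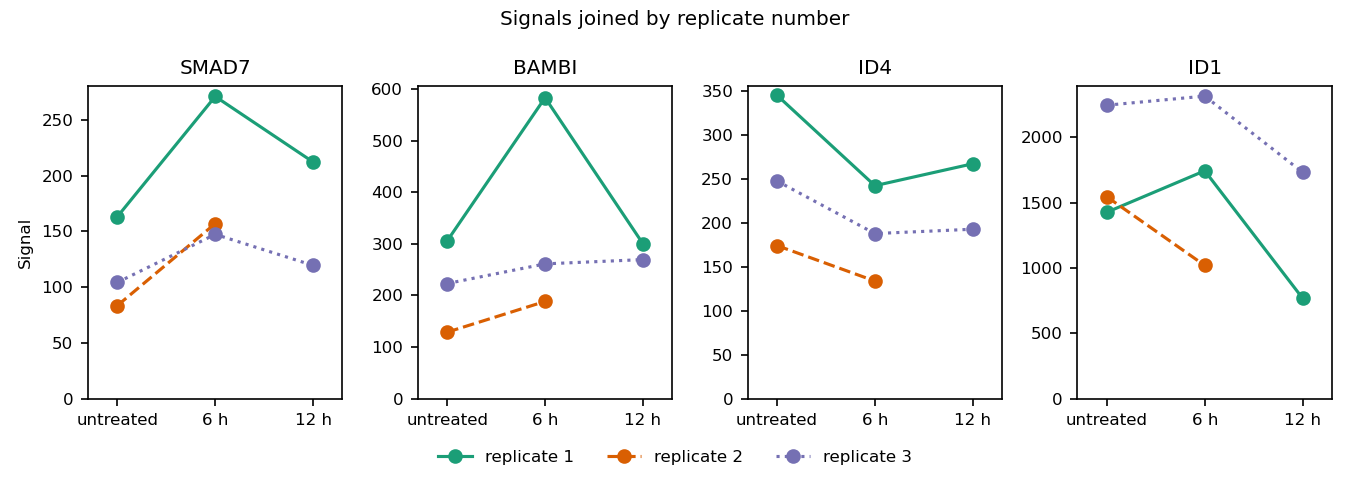
MAS5 signal (linear axis from 0) of SMAD7, BAMBI, ID4 and ID1 in untreated cells and after 6 h and 12 h of Prima, with arrays of the same replicate number joined. SMAD7 and BAMBI lie higher and ID4 lies lower at 6 h than in untreated cells on each of the 3 lines, while the lines themselves lie apart by replicate number.

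Untreated replicate 2 held the highest signal of 20% of the members and the lowest of 20%, where it held 19% and 25.1% of all genes. For 6 h replicate 2 these shares were 11.4% and 25.7% of the members, where it held 16.8% and 18.2% of all genes. Among the members a further array, 6 h replicate 1, stood apart. It held the highest signal of 11 of the 35 members (31.4%), where it held the highest of 19.3% of all genes, and the lowest of 7 (20%, against 16%). The 11 were BMPR2, SMAD1, SMAD2, SMAD4, SMAD6, SMAD7, SMAD9, ID2, ID3, NOG and BAMBI, and the 7 were BMP6, TGFB1, TGFB2, INHBA, TGFBR2, TGFBR3 and LTBP1. The high ones include BMPR2, BMP-activated SMADs, both inhibitory SMADs and BMP targets, and the low ones are 4 ligands, TGFBR2 with its co-receptor and the TGF-beta binding protein. This was noticed in the data and is given as a description of 1 array, with no test.

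Further targets of both branches were counted on that array. Of 12 tested BMP targets outside the members, 6 were highest there and 0 lowest, where 19.3% and 16% of all genes were. Of these 12, 5 exceeded the median of the other arrays by over 1 log2 unit, where 7.5% of all genes did. MSX2, a homeobox target of BMPs in bone, had 426 there and between 95.8 and 269 elsewhere. DLX2, of a related family, had 632 there and between 192 and 348 elsewhere, and DLX3 had 115 there and between 15.03 and 83.6 elsewhere. SP7 (osterix), an osteoblast transcription factor, had 272 there and between 88.8 and 176 elsewhere. All 4 genes had their highest signal on that array. Not all BMP targets were high there: HES1 had 48.3 there and between 35.4 and 124 elsewhere, with a median of 88.7. The median of the 9 tested osteoblast-lineage markers there was 0.60 above the median of the other arrays, beside 0.62 for the 12 BMP targets. The lists are not separate, since SP7 and RUNX2 are in both. Of these markers 3 (SP7, SPP1 and PTH1R) exceeded the median of the other arrays by over 1. The markers were mixed, with 3 highest on that array (RUNX2, SP7 and COL1A1) and 2 lowest, COL1A2 at 26.9 and SPARC at 1319. SPP1 and PTH1R were higher still on 6 h replicate 2.

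SOST (sclerostin), an osteocyte product that antagonises WNT and BMP signals, was too dim across the arrays to enter the test. On the same scale it had 973 there and between 0.525 and 24.6 elsewhere. Of 12 tested TGF-beta targets, 5 were lowest on that array and 1 highest, where 16% and 19.3% of all genes were. CCN2, a matricellular protein induced by TGF-beta, had 394 there and between 1646 and 2547 elsewhere. TGFBI had 127 there and between 207 and 637 elsewhere, and PMEPA1, which binds and sequesters receptor SMADs, had 132 there and between 339 and 782 elsewhere. Not all TGF-beta targets were low there: SKIL, a SMAD co-repressor, had 836 there and between 299.5 and 691 elsewhere.

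With 1 array, the cells of that culture and the handling of its RNA cannot be told apart. Its ACTB 3′ to 5′ ratio of 1.73 was the second highest, after 2.29 on 12 h replicate 1. The GAPDH ratios of these arrays were 0.98 and 1.04. The median BMP target stood at 0.62 on 6 h replicate 1 and 0.28 on 12 h replicate 1 relative to the other arrays, the median SMAD at 0.64 and 0.32, and the median TGF-beta target at -0.35 and 0.17. The part of RNA quality in these values was not tested.

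**Figure D4:**
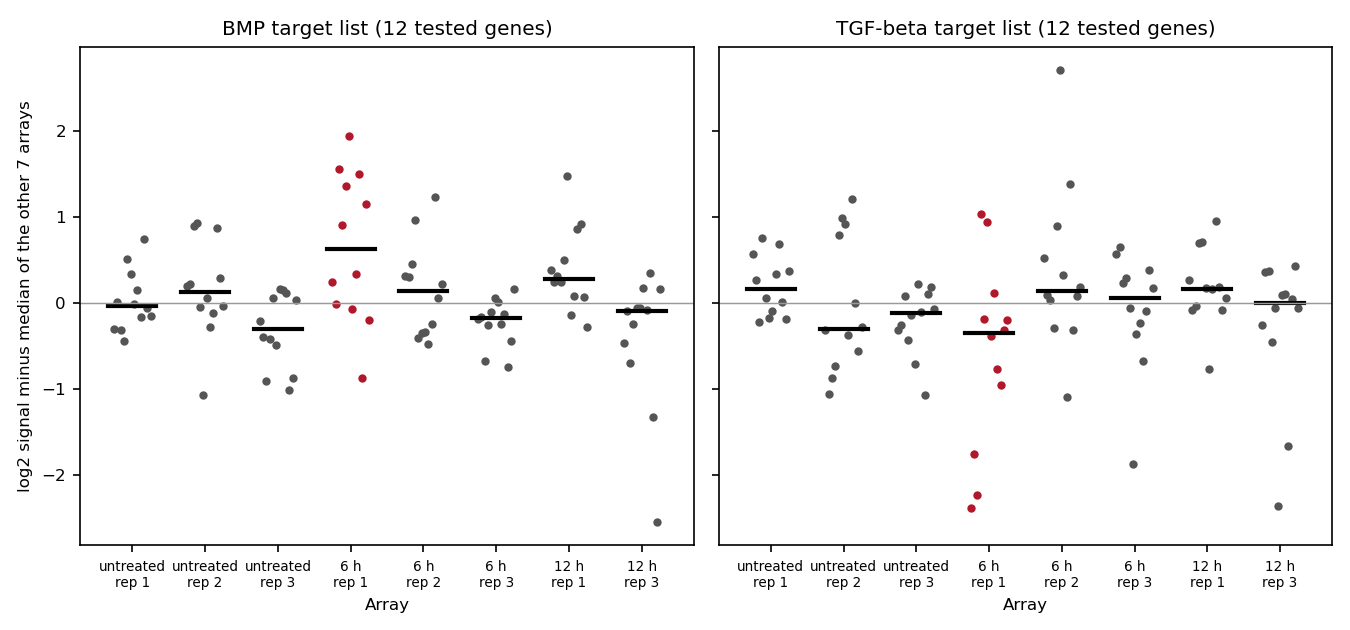
Log2 signal of each gene minus the median of its other 7 arrays, for the 12 tested genes of the BMP target list (left) and of the TGF-beta target list (right), by array; thick bars are medians. On 6 h replicate 1 (red) the median is 0.62 for BMP targets and -0.35 for TGF-beta targets.

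Most members varied more with the replicate number than with the group. In 29 of the 35 members (82.9%) the number accounted for more of the variance than the group, close to the 81.5% of all genes. The median shares of the variance were 18.5% for group and 56.6% for replicate number in members, and 11.9% and 56.8% over all genes. BMP1, TGFB3, LTBP1, TGFB2, BMP4 and INHBA were the 6 members with a larger share for group.

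NOG averaged 350.2 ± 245 on the replicate 1 arrays and 45.7 ± 10.1 on the replicate 3 arrays (SD, n = 3 each), and SMAD6 averaged 178 ± 58.6 on the replicate 1 arrays and 70.7 ± 3.85 on the replicate 3 arrays. The log2 differences of replicate 1 minus replicate 3, with group kept as a term and no test, were 2.75 ± 0.38 and 1.28 ± 0.25, and without 6 h replicate 1 they were 2.19 ± 0.29 and 1.03 ± 0.26. For both genes every replicate 1 array was above every replicate 3 array under the deposited scaling, quantile normalization and median centring, and the replicate 2 arrays lay between in the deposited scaling.

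In all, 11 members had all 3 replicate 1 arrays above all 3 replicate 3 arrays, where 21.9% of all genes did, and 3 had them below, where 14.6% did. The 11 were BMP2, ACVR2A, SMAD1, SMAD2, SMAD5, SMAD6, SMAD7, SMAD9, NOG, GREM1 and BAMBI, and the 3 were TGFB1, ACVR1B and TGFBR2. With quantile normalization the counts were 13 and 3, where 19.2% and 12.8% of genes did. With each array centred on its median, which moved the all-gene median of this contrast to -0.54, they were 2 (NOG and SMAD6) and 15, where 3.87% and 52.9% of genes did. TGFB1 averaged 300.5 ± 48.7 on the replicate 1 arrays and 447 ± 48.9 on the replicate 3 arrays, a difference of -0.58 ± 0.23. SMAD7 averaged 215 ± 53.9 on the replicate 1 arrays and 124 ± 21.8 on the replicate 3 arrays, a difference of 0.78 ± 0.20.

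**Figure D5:**
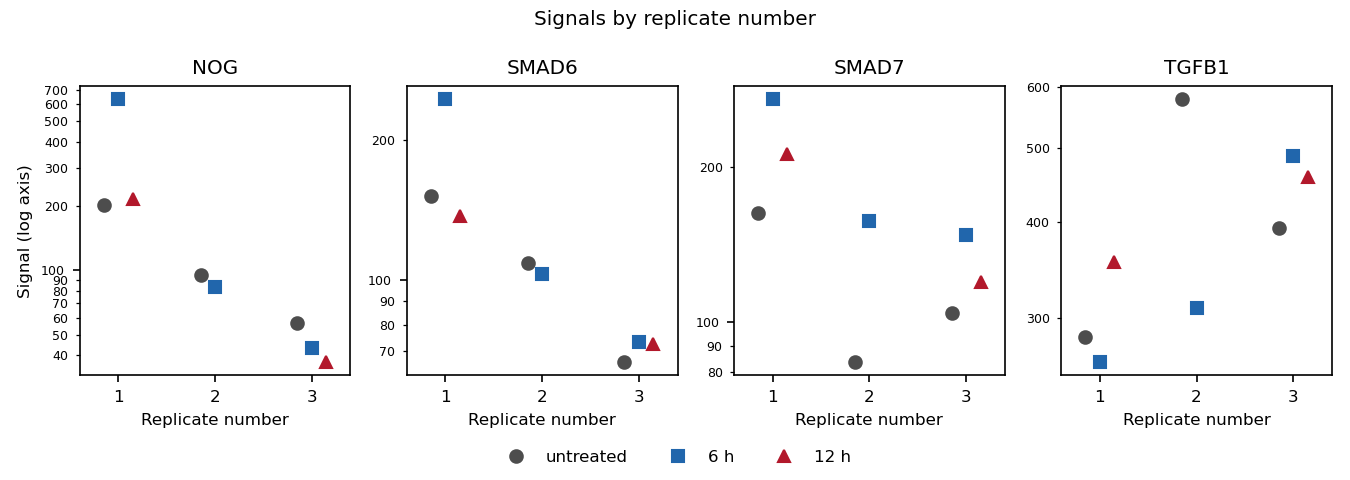
MAS5 signal (log axis) of NOG, SMAD6, SMAD7 and TGFB1 by replicate number, with untreated, 6 h and 12 h arrays as separate symbols. NOG and SMAD6 lie highest on the replicate 1 arrays and lowest on the replicate 3 arrays in every group, and TGFB1 lies lower on replicate 1 than on replicate 3.

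Further genes of the pathway did not pass the test in any comparison either. Of 17 further ligands and receptors, 6 passed the filter, with 1 above 0 at 6 h against untreated (median -0.28) and 2 at 12 h (median -0.55). Without 6 h replicate 1, 4 of 6 were above 0 at 6 h (median 0.16), and with the replicate block 3 of 6 at 12 h (median 0.024). INHBB, another activin subunit, and GDF5, a cartilage BMP, had the lowest values, -1.50 ± 1.02 at 6 h and -1.52 ± 1.26 at 12 h, and ACVR1C, a nodal and activin receptor, the highest at 12 h, 0.43 ± 0.56. INHBB had 5.80, 267 and 168 at 6 h, against 125, 262 and 178 in untreated cells, and without 6 h replicate 1 its difference was 0.23 ± 0.36. GDF11 was below untreated on both 12 h arrays, at 41.2 and 33.9 at 12 h, against 68.3, 55.2 and 48.2 in untreated cells.

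Of 18 further extracellular regulators, 11 were tested, with 2 above 0 at 6 h against untreated (median -0.26) and 7 at 12 h (median 0.17), the 12 h median being 0.00076 with the replicate block. With 6 h replicate 1 left out, 5 of 11 were above 0 at 6 h (median -0.11). ITGB8, a subunit of an integrin that releases TGF-beta from its latent complex, had 32.2, 79.6 and 122 at 6 h, against 122, 169 and 179 in untreated cells. The highest 6 h array lay just under the lowest untreated array, with a difference of -1.19 ± 0.44 (limma, unadjusted p = 0.0177, adjusted p = 1.00). THBS1, another activator of latent TGF-beta, had 323, 859 and 699 at 6 h, against 1508, 1026 and 696 in untreated cells, a difference of -0.82 ± 0.38 (limma, unadjusted p = 0.0489, adjusted p = 1.00), and was lowest on 6 h replicate 1. Leaving that array out gave differences of -0.65 ± 0.34 for ITGB8 and -0.40 ± 0.34 for THBS1. FURIN, the protease that processes the precursors, and LTBP2 were at 0.32 ± 0.48 and 0.50 ± 1.14, with ranges of -0.12 to 0.75 and -0.53 to 1.68 when 1 array was left out. At 12 h the extremes were -1.16 ± 1.27 for LTBP2 and 0.51 ± 0.49 for FSTL3, a follistatin relative, and LTBP2 was at 0.023 without 12 h replicate 3.

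Of 19 further intracellular regulators, 18 were tested, with 11 above 0 at 6 h against untreated (median 0.12) and 13 at 12 h (median 0.23). PPM1A, a phosphatase of receptor SMADs, had 334, 212 and 294 in untreated cells, 348, 360.1 and 390.2 at 6 h, and 416 and 377 at 12 h. It was above the untreated arrays at both times, in comparisons that share those arrays, by 0.41 ± 0.25 and 0.52 ± 0.28. TGIF1, a SMAD co-repressor, was at -0.46 ± 0.40 and -0.67 ± 0.44. ZFYVE9 (SARA), which brings SMAD2 to the receptor, was at 0.62 ± 0.47 at 6 h, and NEDD4L, a ubiquitin ligase of SMAD2 and SMAD3, at 0.78 ± 0.67 at 12 h.

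Of 13 further TGF-beta targets, 12 were tested, with 4 above 0 at 6 h against untreated (median -0.04) and 7 at 12 h (median 0.09). Without 6 h replicate 1, 9 of 12 were above 0 at 6 h (median 0.19). LMCD1 had 258, 256 and 276 in untreated cells, 133, 207 and 242 at 6 h, and 290.4 and 265 at 12 h. Its 6 h arrays lay below the untreated and the 12 h arrays, with a difference of -0.48 ± 0.28 from untreated, or -0.24 ± 0.26 without 6 h replicate 1. CCN2 was at -0.50 ± 0.54 at 6 h, or 0.39 ± 0.27 without that array, and PMEPA1 at 0.50 ± 0.57 at 12 h.

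Of 14 further BMP targets, 12 were tested, with 9 above 0 at 6 h against untreated (median 0.15) and 6 at 12 h (median 0.00). With 6 h replicate 1 left out, 7 of 12 were above 0 at 6 h (median 0.068). DLX3 was the highest at both times, at 0.94 ± 0.72 and 1.10 ± 0.80, and MSX2 was at 0.45 ± 0.48 at 6 h. Leaving out 6 h replicate 1 gave 6 h differences of 0.25 ± 0.79 for DLX3 and -0.05 ± 0.44 for MSX2. SP7 had 176 and 123 at 12 h, against 93.3, 96.7 and 105 in untreated cells, above the untreated arrays, a difference of 0.59 ± 0.45. DLX5, a homeobox gene of osteoblasts, was the lowest at 6 h, at -0.20 ± 0.24, and GATA2 at 12 h, at -1.04 ± 0.76, or 0.24 without 12 h replicate 3.

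At 12 h against 6 h, 2 of the 6 further ligands and receptors were above 0, 9 of 11 extracellular regulators, 10 of 18 intracellular regulators, 7 of 12 TGF-beta targets and 5 of 12 BMP targets, with medians of -0.22, 0.28, 0.05, 0.12 and -0.09. Leaving out 6 h replicate 1 gave medians of -0.54, 0.28, 0.11, -0.12 and -0.039. LTBP2, listed both as a regulator and as a target, had the lowest value of these 5 lists, -1.66 ± 1.27, followed by GATA2 at -1.49 ± 0.76 and GDF5 at -1.35 ± 1.26. NEDD4L had the highest, 1.01 ± 0.67, followed by INHBB at 0.97 ± 1.14 and ITGB8 at 0.88 ± 0.49. Each was lowest on 6 h replicate 1, and without it they were at 0.32 ± 0.57, -0.76 ± 0.39 and 0.34 ± 0.37. Of 9 tested osteoblast-lineage markers, 5 were above 0 in each comparison, with medians of 0.19 at 6 h and 0.01 at 12 h against untreated and 0.03 for 12 h against 6 h. PTH1R, the parathyroid hormone receptor, had 5.41 and 10.95 at 12 h, against 46.5, 47.1 and 21.5 at 6 h, a difference of -2.23 ± 0.98 (limma, unadjusted p = 0.0401, adjusted p = 1.00). It was chosen after its values were seen.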

How the data were processed

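Biotin-labelled cRNA of Saos-2 cells was hybridised to 8 Affymetrix 3′ arrays, per the labels' protocols. The authors deposited 1 linear intensity per probe set and array, computed with MAS5, per the submitters' processing notes, whose version and settings are not given in the sources used here. The number of arrays limits the precision.

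The table held 54675 probe sets, of which 62 controls were left out. A platform annotation gave exactly 1 symbol to 41091 and several to 1801, and 11721 stayed unnamed. Each gene was represented by its brightest probe set with 1 symbol (19775 genes). Signals under the 10th percentile (2.385) were set to it, log2 was taken, and genes with a mean log2 signal above the median of all probe sets (a signal of 18.6) were tested (12063). One fit of 3 groups was made in R 4.3.3 with limma 3.58.1 (lmFit, eBayes with a variance trend), two-sided, with Benjamini-Hochberg adjustment over all genes tested, and scripts were tested on simulated data. Counts, medians and values of gene lists carry no test. No 2 arrays shared more than 1 identical value.

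Members, lists, tests and the rule for named genes were chosen with earlier results of these data known. The rule names members whose groups do not overlap, the 3 largest differences to either side, up to 4 members per role with the highest mean signal, and, of each further list, those with the largest differences (up to 2 to either side, of which the text gives a part). The genes on 6 h replicate 1 and by replicate number were picked after their values were seen.

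Same-numbered arrays correlated at 0.108 to 0.637 in their deviations from the group means (7 pairs), and other pairs at -0.576 to 0.333 (14 pairs). Deviations within a group cancel out, and those of the 2 arrays at 12 h mirror each other. Negative values of other pairs are thus partly forced, and the pairs are not independent of each other. The numbers were treated as pairs in a further fit with a replicate block. Other repeats used quantile normalization, median centring, a floor at a signal of 1, a pseudocount of 32, averaged or single probe sets, no variance trend, only the groups compared, no filter or one at the 75th percentile, array weights, no replicate 2 arrays (also with the block) and each array left out.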

Additional observations from a re-analysis of the deposited data

How the results depend on the processing

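In every repeat listed above, the count of genes and of members past the threshold was 0 in all 3 comparisons, with the replicate block as well, and the members' median minus that of all genes moved by less than the spread between arrays. In a count added after the data were seen, leaving out 1 array turned the sign of 20 of 35 members at 6 h against untreated, 25 at 12 h against untreated and 28 for 12 h against 6 h, among them NOG (-0.78 to 1.16), TGFBR2 (-0.65 to 0.018) and TGFB1 (-0.49 to 0.032) at 6 h against untreated. Of the 3 largest differences to either side in each comparison and those of ACVR1, the ones that turned had leave-one-out ranges of -1.38 to 0.56 (BMP7, 6 h against untreated), -0.047 to 1.10 (SMAD9, 6 h against untreated), -1.15 to 0.023 (ID1, 12 h against untreated), -1.02 to 0.21 (BMP7, 12 h against untreated), -0.94 to 0.21 (ACVR2A, 12 h against untreated), -1.83 to 0.71 (NOG, 12 h against 6 h), -1.06 to 0.11 (ID1, 12 h against 6 h), -0.16 to 0.98 (TGFBR3, 12 h against 6 h) and -0.16 to 0.99 (BMP6, 12 h against 6 h).

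Centring each array on its median, which moves the median of all genes to 0.66 at 12 h against untreated and 0.65 for 12 h against 6 h, gave 0.019 for ID1, 0.023 for BMP7 and 0.21 for ACVR2A at 12 h against untreated, and 0.024 for NOG and 0.11 for ID1 for 12 h against 6 h; ID1 at 12 h against untreated stood at -0.65 relative to that median with either scaling. BMP7 at 12 h against untreated was 0.13 with the replicate block, 0.17 with array weights and 0.21 without the replicate 2 arrays, with or without the block, and ACVR2A was 0.016 without them, with or without the block. The mean of the probe sets gave -0.16 for BMP1 at 12 h against untreated and 0.29 for ACVR2B for 12 h against 6 h. The cause of these turns was not tested. With 2 or 3 arrays a group, the spread between arrays limits which differences could be detected.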
